A study of Mus musculus with 13 samples.

Results

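Talin-1 and 8 regulators of the actin cytoskeleton (Tln1, Tes, Rai14, Coro2a, Svil, Myo10, Tesk1, Trio and Arhgap12) were followed in immune cells sorted from mouse lymphomas with or without PSGL-1. The 9 genes were chosen as talin and actin genes from 4 chromosome stretches in which the deposited gene names match the counts. That choice was made by name, but with earlier results of these data known. They are 9 of the 56923 gene IDs in each count file and of the 1351 IDs in those stretches, and all 9 passed the filter on low counts. All tumours came from EL4, a mouse T-cell lymphoma line, of which 500000 cells per mouse were placed under the skin of the flank of mice aged 6 to 8 weeks. The 7 libraries titled as controls came from tumours of EL4 cells carrying a vector (called vector here) and the 6 others from tumours of EL4 cells with PSGL1 knocked out (PSGL1_KO). Tumours were taken close to 20 days later, and CD45-positive cells were sorted by flow cytometry for RNA sequencing. The knockout was in the injected line and not in the host. EL4 cells are themselves of the CD45-positive lineage, and the labels do not give the mouse strain or say whether the knockout line was 1 clone.

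Integrins such as LFA-1 bind their ligands firmly only after talin attaches to the tail of the beta chain inside the cell and ties it to actin filaments. Macrophages use this linkage when they adhere to and engulf other cells, and lymphocytes use it when they adhere and migrate. Filaments are cut, bundled and pulled by further proteins, and small GTPases switch their assembly on and off. The study asks how PSGL-1 on tumour cells bears on phagocytosis by macrophages through LFA-1. Both chains of LFA-1 are encoded outside the 4 stretches, so Itgal and Itgb2 were given no value here, and neither was Selplg, the gene of PSGL-1, which leaves the knockout itself unchecked.

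Libraries held 3710817 to 5712566 counts on gene IDs, and between 67.3% and 75.4% of all rows' totals lay on no annotated feature. Mitochondrial IDs took 10.0% to 34.5% of gene counts. Over most of the genome the names did not match the counts: Actb, the actin gene of nearly every cell, was listed at 1 to 22 counts per library and Eef2 at 0 to 3, whereas Rps20 and Pabpc1 inside the stretches averaged 7024 and 6930 CPM (counts per 1e6 counts of a library). Rps20 and Pabpc1 lie on chromosomes 4 and 15, and the names in the stretches on chromosome 6, which holds Tes, and on chromosome 18, which holds Svil and Arhgap12, were not checked in this way. The numbers in the file names began with 3 for vector replicates 1 and 2 and PSGL1_KO replicates 1 and 2, and with 7 for the other 9 libraries. What that digit stands for is not given in the sources used here. Since several of the 9 genes followed it, values within each file number are printed beside the group values. Whether each library stands for a separate mouse is not in the titles, and the p-values therefore refer only to the variation among libraries. In sorted bulk cells, fewer cells of a type and less RNA per cell cannot be told apart.

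Of the 9 genes, 4 rose in the PSGL1_KO libraries and 0 fell. Tesk1 rose most, 3.48-fold, and Rai14, Trio and Tes each rose about as much as one another, by 2.04-fold, 2.0-fold and 2.0-fold. Tln1, Svil and Myo10 differed between the groups by less than the spread of the libraries, Arhgap12 just missed the threshold, and Coro2a varied too widely for a call. With DESeq2, or at an unadjusted edgeR p of 0.05, Arhgap12 was a further gene to rise and 0 fell. Over all IDs, DESeq2 called 1234 higher and 797 lower of 31216 with an unadjusted p. That total was not cut by the edgeR filter and includes any IDs left without an adjusted p, so its share is not comparable with those of edgeR. The unadjusted edgeR p was below 0.05 for 2889 of 10422 IDs. Across all 10422 IDs tested with edgeR at an adjusted p of 0.05, 14.5% were called, 9.02% higher and 5.49% lower. Of the 409 IDs tested within the stretches 24.4% were called, 19.8% higher and 4.65% lower, and of the protein-coding ones 21.7% were higher. Because the 9 genes were chosen with earlier results known, these shares give scale only and do not test the set. The 9 genes had a median log2 fold change (PSGL1_KO minus vector) of 0.81, beside -0.01 over all IDs and 0.18 over the stretch IDs. That median is the value of Coro2a itself, which was uncertain (SE 0.76). It ranged from 0.42 without PSGL1_KO replicate 2 to 1.02 without PSGL1_KO replicate 3, so it does not measure a shift of the set. Scaling the libraries on the stretch IDs alone moved the median of all IDs to -0.21 and turned the calls over all IDs from 940 higher and 572 lower to 597 higher and 1177 lower, and those in the stretches from 81 higher and 19 lower to 54 and 42. The same 4 genes, Tes, Rai14, Tesk1 and Trio, passed under that scaling too.

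**Figure D1:**
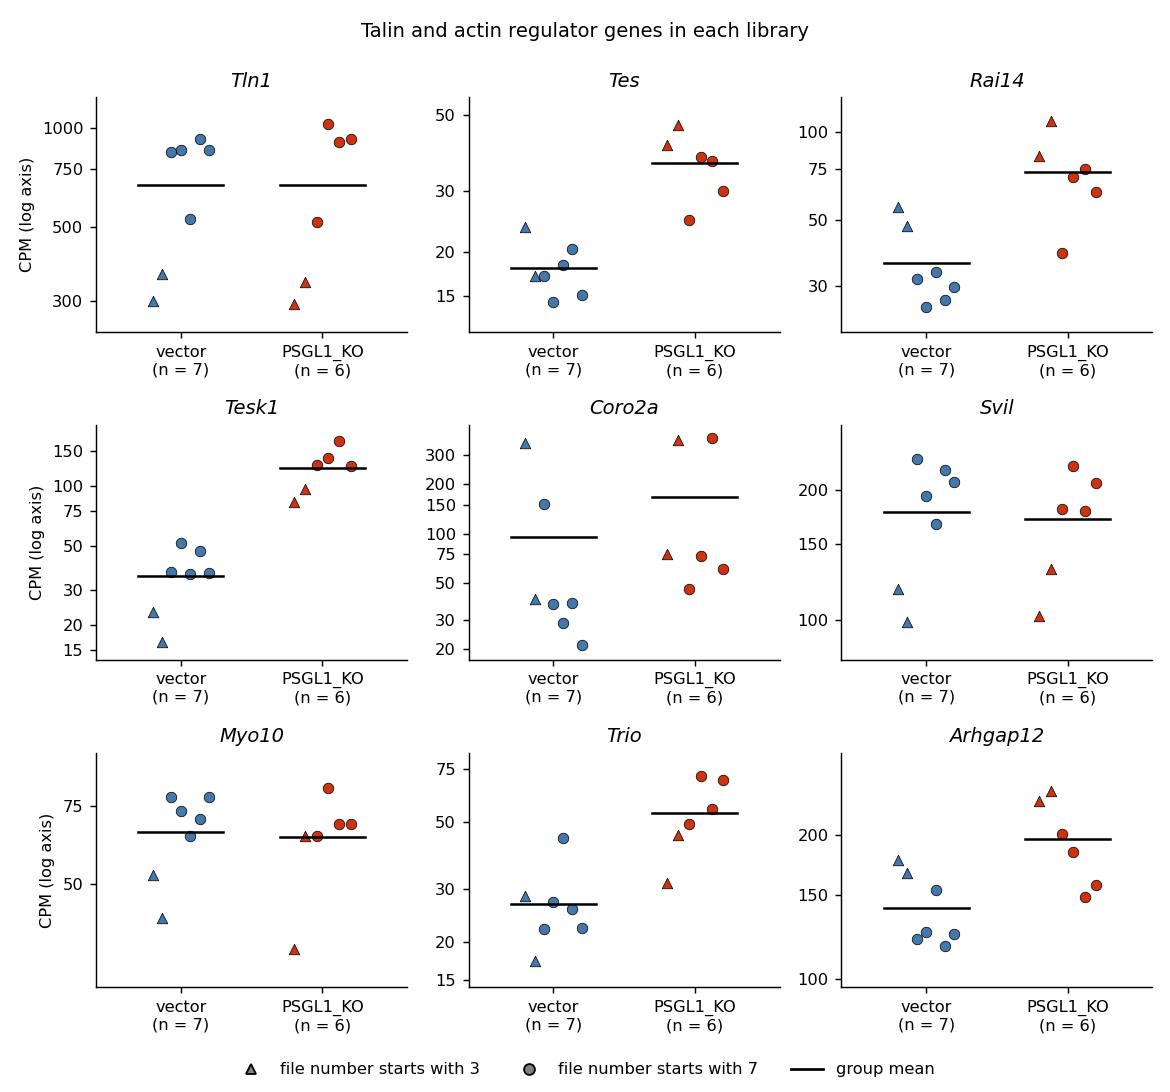
Each panel plots 1 gene, with CPM on a log axis for the 7 vector and 6 PSGL1_KO libraries. Triangles are libraries whose file number starts with 3, circles those starting with 7, and bars are group means. All PSGL1_KO points of Tes and Tesk1 lie above all vector points, while the Tln1 and Svil triangles lie below all circles in both groups.

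Tln1 (ENSMUSG00000028465.17, chr4:43531519-43562691, minus strand of GRCm38) encodes talin-1, the adaptor that activates integrins and joins them to actin. Vector libraries ranged from 299 to 928 CPM with a median of 847, and PSGL1_KO libraries from 294 to 1031 CPM with a median of 713.9. The groups overlapped over nearly their whole range. Mean levels were 669 ± 265 CPM (SD, n = 7) for vector and 670.0 ± 324 CPM (SD, n = 6) for PSGL1_KO. The log2 fold change was 0.00 ± 0.32 (SE), with a 95% interval of -0.67 to 0.67 and an edgeR adjusted p of 0.998. The interval reaches as far below 0 as above it.

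What separated the Tln1 values was the file number. The 4 libraries with file number 3 held 294 to 362 CPM and the 9 with file number 7 held 518 to 1031 CPM, with no overlap. In a model that also held the group, the log2 difference of file number 7 minus 3 was 1.35 ± 0.16 (SE; edgeR adjusted p = 6.46e-06). This second comparison was added for the 9 genes after their values were seen, and it called 39.8% of all IDs, 20.9% higher and 18.9% lower with file number 7. Among libraries of 1 file number the Tln1 group difference was 0.06 for 7 and -0.03 for 3 on the log2 scale. Tln1 shares 360 exon bases, 3.67% of its exon length, with Creb3 on the other strand.

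Tes (ENSMUSG00000029552.20, chr6:17065149-17105828, plus strand) encodes testin, a LIM-domain protein of focal adhesions and actin fibres. It was at 14.4 to 23.7 CPM in vector libraries, median 17.1, and at 24.9 to 46.7 CPM in PSGL1_KO libraries, median 37.2. All 6 PSGL1_KO libraries lay above all 7 vector libraries, a pattern seen in 4.14% of all IDs and 9.29% of those in the stretches. Tes rose by a log2 fold change of 1.00 ± 0.18 (SE; edgeR adjusted p = 0.000764), from 18.04 ± 3.21 (SD, n = 7) to 36.2 ± 7.76 CPM (SD, n = 6). The rise was 0.91 among libraries with file number 7 and 1.14 among those with 3, and both passed the test. Gm4876, a transcript on the other strand, shares 144 exon bases with Tes and had 134 counts over all libraries, against 1613 for Tes.

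Rai14 (ENSMUSG00000022246.15, chr15:10568969-10714624, minus strand) encodes an ankyrin-repeat protein that binds actin filaments. Vector libraries held 25.4 to 55.7 CPM, median 31.5, and PSGL1_KO libraries 38.7 to 109 CPM, median 72.7. Vector replicates 1 and 2, at 55.7 and 47.7 CPM, were the highest vector libraries and lay above PSGL1_KO replicate 3, at 38.7 CPM. Within each file number every PSGL1_KO library was above every vector library. File number 3 had only 2 libraries per group, and how many of all IDs show that pattern was not counted. The log2 fold change of Rai14 was 1.03 ± 0.23 (SE), with an edgeR adjusted p of 0.00448, and group means were 35.8 ± 11.4 (SD, n = 7) and 73.1 ± 23.3 CPM (SD, n = 6). Gm10389 shares 89 exon bases with it on the other strand and had 140 counts over all libraries, against 3201 for Rai14.

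Coro2a (ENSMUSG00000028337.15, chr4:46536937-46602202, minus strand) encodes a coronin, a WD-repeat protein of actin-rich structures. Its values differed 18.2-fold between the lowest and the highest library. In 4 libraries it stood above 100 CPM, namely vector replicate 1 at 357, vector replicate 3 at 151, PSGL1_KO replicate 2 at 370.3 and PSGL1_KO replicate 5 at 382 CPM. The other 9 libraries held 21.0 to 75.7 CPM. High and low libraries were thus present in both groups and with both file numbers. The medians were 37.8 CPM in vector and 74.6 CPM in PSGL1_KO. Coro2a had a log2 fold change of 0.81 ± 0.76 (SE), a 95% interval of -0.84 to 2.45 and an edgeR adjusted p of 0.549. Without vector replicate 1 the value was 1.67 (adjusted p = 0.0966), and without PSGL1_KO replicate 5 it was 0.38 (adjusted p = 0.812).

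The genes next to Coro2a that were looked at, Gm16731, Anp32b, Nans, Tbc1d2 and Trim14, did not share its 4 high libraries. Nans had 975 counts in vector replicate 1 and 1445 in vector replicate 3, within its vector range of 975 to 1788 counts. Gm16731, a transcript on the other strand that shares 329 exon bases with Coro2a, had 17 to 30 counts in vector and 54 to 152 counts in PSGL1_KO libraries. These are raw counts, not scaled for depth. Gm16731 had 17 in vector replicate 1, where Coro2a was highest in that group and total gene counts were lowest, at 3710817.

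Svil (ENSMUSG00000024236.19, chr18:4920540-5119299, plus strand) encodes supervillin, a membrane-bound relative of villin and gelsolin that binds actin and myosin. It spanned 98.8 to 235 CPM in vector, median 194, and 102 to 227 CPM in PSGL1_KO libraries, median 179.7, so the groups overlapped almost fully. The log2 fold change was -0.05 ± 0.22 (SE; 95% interval -0.51 to 0.40; edgeR adjusted p = 0.910). As for Tln1, the 4 libraries with file number 3 lay below all others, at 98.8 to 131 CPM against 166 to 235 CPM. That difference was 0.85 ± 0.12 on the log2 scale (SE; edgeR adjusted p = 2.74e-05).

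Myo10 (ENSMUSG00000022272.18, chr15:25622525-25813673, plus strand) encodes the unconventional myosin that travels to the tips of filopodia and carries integrins there. Vector libraries held 42.04 to 78.5 CPM, median 70.0, and PSGL1_KO libraries 35.8 to 82.2 CPM, median 66.1. The lowest Myo10 value of all, 35.8 CPM, and the highest, 82.2 CPM, were both in the PSGL1_KO group. Its log2 fold change was -0.04 ± 0.19 (SE), with a 95% interval of -0.43 to 0.36 and an edgeR adjusted p of 0.930. File number 7 exceeded 3 by 0.57 ± 0.14 on the log2 scale (SE; edgeR adjusted p = 0.00346), although the ranges touched at 64.0 CPM.

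Tesk1 (ENSMUSG00000028458.13, chr4:43441939-43448064, plus strand) encodes a kinase that phosphorylates cofilin, which stops cofilin from severing actin filaments. It was at 16.4 to 51.8 CPM in vector libraries, median 36.9, and at 83.2 to 169.8 CPM in PSGL1_KO libraries, median 128. The lowest PSGL1_KO library stood well above the highest vector library. Tesk1 rose by a log2 fold change of 1.80 ± 0.23 (SE; 95% interval 1.32 to 2.28; edgeR adjusted p = 2.62e-05), from 35.6 ± 12.3 (SD, n = 7) to 124 ± 30.8 CPM (SD, n = 6). Libraries with file number 7 gave 1.74 and those with 3 gave 2.21, both past the threshold. Within a group, file number 7 was higher than 3 by 0.84 ± 0.15 (SE; edgeR adjusted p = 0.00016).

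Tesk1 may not be fully separate from Cd72, a receptor of B cells and some myeloid cells that lies on the other strand (chr4:43446462-43454628). Of the Tesk1 exons, 1423 bases or 32.1% are also exon of Cd72, which makes up 41.6% of the Cd72 exons. Neither the strand setting nor the rule for reads on exons of both genes is known. Reads from the shared bases may have been counted for either gene or for none. Cd72 held 23.6 to 66.5 CPM in vector libraries and 138 to 314 CPM in PSGL1_KO libraries, with no overlap, and its log2 fold change was 2.27 ± 0.25 (SE; edgeR adjusted p = 6.18e-06). For each Cd72 count there were 0.558 to 0.956 Tesk1 counts in vector libraries, median 0.791, and 0.484 to 0.698 in PSGL1_KO libraries, median 0.541. Whether any of the Tesk1 rise came from Cd72 reads was not tested.

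Creb3, a transcription factor of the endoplasmic reticulum membrane, partners Tln1 in the same way (chr4:43562332-43567060, plus strand). Its 360 shared bases are 15.2% of its exon length. Creb3 rose from 77.0 to 102 CPM in vector to 109.6 to 183 CPM in PSGL1_KO libraries, without overlap, by a log2 fold change of 0.65 ± 0.15 (SE; edgeR adjusted p = 0.0047). Tln1 gave no such difference. The 4 genes Tesk1, Cd72, Tln1 and Creb3 lie within 125 kb of each other on chromosome 4.

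**Figure D2:**
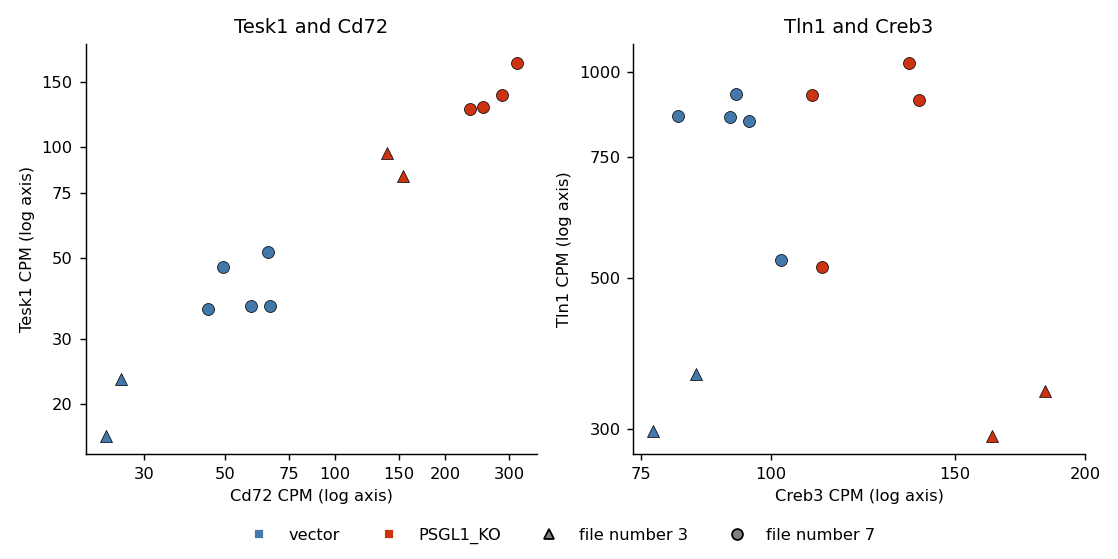
Both axes are CPM on log scales and each point is 1 library, with colour for the group and shape for the file number. In the left panel Tesk1 and Cd72 climb together and the PSGL1_KO libraries fill the upper right, from 83.2 CPM of Tesk1 and 138 CPM of Cd72 upward. In the right panel Tln1 separates by file number and Creb3 by group.

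Trio (ENSMUSG00000022263.11, chr15:27730651-28025848, minus strand) encodes an exchange factor that loads small GTPases such as Rac with GTP. Vector libraries held 17.30 to 44.4 CPM, median 25.8, and PSGL1_KO libraries 31.4 to 71.1 CPM, median 52.6. One vector library, replicate 5 at 44.4 CPM, exceeded the lowest PSGL1_KO library, replicate 1 at 31.4 CPM, and no other pair of libraries overlapped. Trio rose by a log2 fold change of 1.00 ± 0.22 (SE; edgeR adjusted p = 0.00416), from 26.8 ± 8.63 (SD, n = 7) to 53.7 ± 15.03 CPM (SD, n = 6). Within each file number all PSGL1_KO libraries were above all vector libraries. File number 3 had only 2 libraries per group, and the share of all IDs with that pattern was not counted. The Trio rises were 1.11 for 7 and 0.78 for 3. Without vector replicate 5 the value was 1.15 (adjusted p = 0.000834).

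Arhgap12 (ENSMUSG00000041225.17, chr18:6024427-6136098, minus strand) encodes a GTPase-activating protein, which switches small GTPases off. It was at 117 to 178 CPM in vector libraries, median 125, and at 149 to 248 CPM in PSGL1_KO libraries, median 193. The groups overlapped between 149 and 178 CPM, where 2 PSGL1_KO libraries lay below the highest vector library. The log2 fold change was 0.47 ± 0.16 (SE; 95% interval 0.14 to 0.81) and missed the threshold with an edgeR adjusted p of 0.0511. Arhgap12 passed among libraries with file number 7 (0.42, adjusted p = 0.0215) and with 3 (0.52, adjusted p = 0.0302), with the file number as a term of the model (0.45 ± 0.10, SE; adjusted p = 0.00264), and in 4 of the 13 fits that left out 1 library. Those 3 file number fits also called more of all IDs: 2243 of 10775, 2447 of 10525 and 2689 of 10422, against 1512 of 10422 in the main fit. With libraries scaled on the stretch IDs alone Arhgap12 was 0.26, with an adjusted p of 0.168. It also missed with RLE scaling (adjusted p = 0.0557), without mitochondrial IDs (0.0534) and without the filter on low counts (0.100), and passed in 5 of the 9 settings other than leaving out 1 library.

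**Figure D3:**
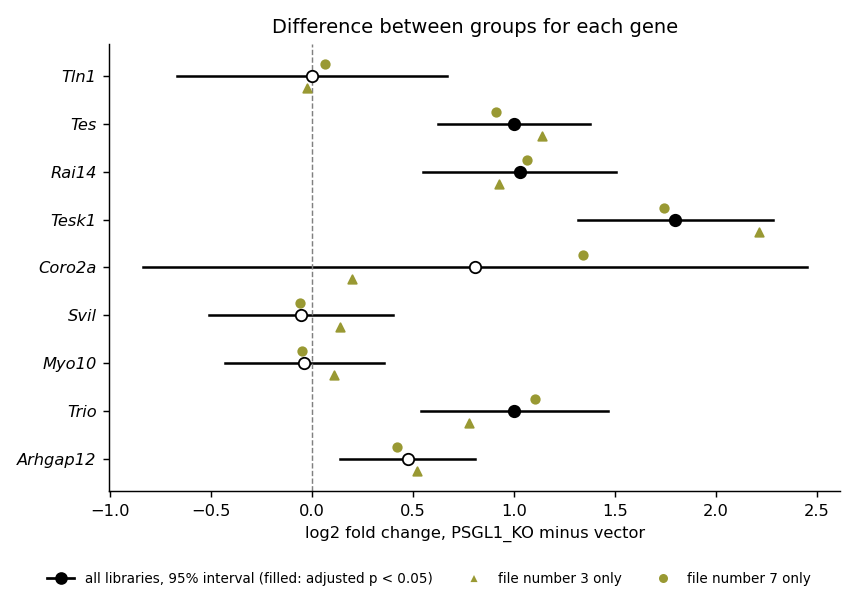
Points are log2 fold changes of PSGL1_KO minus vector with 95% intervals, filled where the edgeR adjusted p was below 0.05. Green triangles and circles give the same difference among libraries of file number 3 and 7. Tes, Rai14, Tesk1 and Trio lie right of 0 in all 3 fits, and the Coro2a interval runs from -0.84 to 2.45.

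None of the 9 group differences was shown to depend on the file number, since the interaction of group and file number had edgeR adjusted p from 0.426 for Tesk1 to 0.916 for Arhgap12. The file number itself divided the genes. Tln1, Tesk1, Svil, Myo10 and Trio were higher with file number 7, by 0.50 to 1.35 on the log2 scale, and Rai14 and Arhgap12 were lower, by -0.73 and -0.45. Each of these 7 passed the test, Trio only just (edgeR adjusted p = 0.0483). Tes at -0.34 (adjusted p = 0.0893) and Coro2a at -1.31 (adjusted p = 0.226) did not. Over all IDs 39.8% passed the same test, 20.9% higher and 18.9% lower with file number 7.

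**Figure D4:**
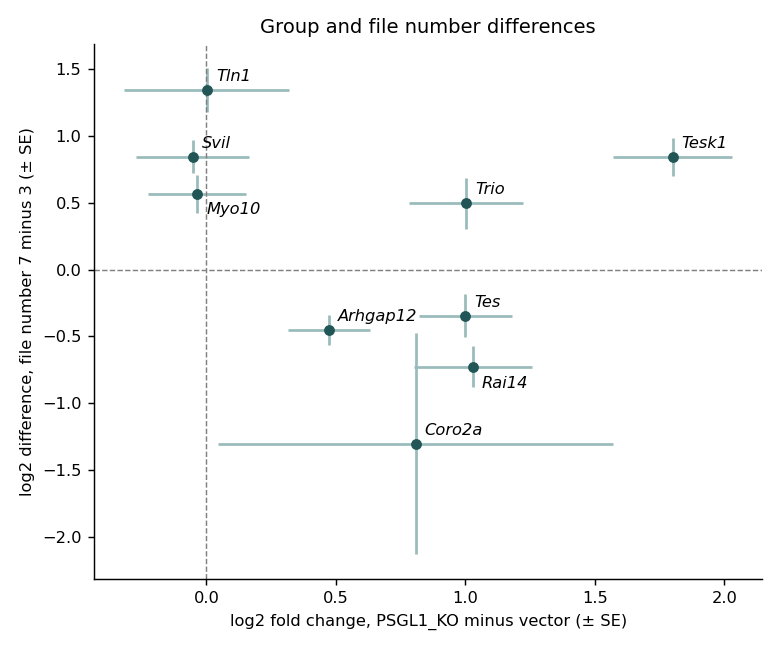
Each point is a gene, with the log2 fold change of PSGL1_KO minus vector on the x axis, the log2 difference of file number 7 minus 3 on the y axis and bars of 1 SE. Tln1, Svil and Myo10 sit near 0 on the x axis and at 0.57 to 1.35 on the y axis. Tesk1 and Trio are above 0 on both, and Rai14 is at 1.03 and -0.73.

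Levels of different genes were compared as CPM per kb of exon. Tln1 had the highest mean of the 9, at 68.3 ± 27.1 CPM per kb (SD, n = 7) in vector libraries. It was the highest gene in 11 of 13 libraries, and Coro2a exceeded it in vector replicate 1, at 55.2 against 30.5 CPM per kb, and in PSGL1_KO replicate 2, at 57.3 against 34.9 CPM per kb. Arhgap12 at 17.6 ± 3.07, Svil at 16.6 ± 4.90 and Coro2a at 14.9 ± 19.1 CPM per kb (SD, n = 7) did not separate in vector libraries, since Arhgap12 led Svil in 3 of 7 and Svil led Coro2a in 5 of 7. In PSGL1_KO libraries Arhgap12 led Svil in 6 of 6. Below them came Tesk1 at 8.02, Myo10 at 6.47, Rai14 at 4.23, Tes at 2.64 and Trio at 1.15 CPM per kb. Coro2a led Tesk1 in 3 of 7 vector libraries and Tesk1 led Myo10 in 6 of 7. Myo10 led Rai14 in 5 of 7 vector libraries but in 1 of 6 PSGL1_KO libraries. The last steps held in every library: Rai14 was above Tes and Tes above Trio in 7 of 7 vector and 6 of 6 PSGL1_KO libraries. In PSGL1_KO libraries Tesk1 stood at 28.0 ± 6.95 CPM per kb (SD, n = 6), second to Tln1 at 68.4 ± 33.1 CPM per kb (SD, n = 6) and within the spread of Coro2a at 26.0 ± 25.03 and Arhgap12 at 24.4 ± 5.03 CPM per kb (SD, n = 6).

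For each gene, the most similar log2 CPM over the 13 libraries was sought among 316 other protein-coding genes of the stretches, leaving out the 9 genes themselves, Cd72 and Creb3. Some of those left out were closer than any candidate or than the second one: Tesk1 and Cd72 had r = 0.98, Tln1 and Svil r = 0.93, and Svil and Myo10 r = 0.92. These libraries share group and file number, so the coefficients describe the pattern only. Among the candidates, Tln1 was most like Nol6 (Pearson r = 0.94, Spearman coefficient 0.81) and Fam219a (r = 0.91). Svil was nearest in that search to Anp32b (r = 0.95) and Ube2r2 (r = 0.92), and Myo10 to Dap (r = 0.90) and Anp32b (r = 0.89). Of the genes that rose, Tes was closest among the candidates to Mdfic (r = 0.96) and Tmem67 (r = 0.95), Rai14 to Glipr2 (r = 0.97) and Tmem67 (r = 0.95), Tesk1 to Chd7 (r = 0.92) and Zfp462 (r = 0.90), and Trio to Phf24 (r = 0.93) and Chd7 (r = 0.89). Arhgap12 was closest to Tgfbr1 (r = 0.95) and Ufl1 (r = 0.94). Coro2a had no close match, with March6 and Tmem168 at r = 0.72.

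Promoters of 2 of the genes that rose, Rai14 and Trio, are shown because no annotated exon falls in the 250 bases before a RefSeq start of each. They come from RefSeq on GRCm38.p6, are written 5′ to 3′ on the gene's strand (minus for both), and cover chr15:10714099-10714348 for Rai14 and chr15:28025849-28026098 for Trio. Capitals mark GGAATG, the core of the motif of TEAD factors, which act with YAP on many cytoskeletal genes.
Rai14: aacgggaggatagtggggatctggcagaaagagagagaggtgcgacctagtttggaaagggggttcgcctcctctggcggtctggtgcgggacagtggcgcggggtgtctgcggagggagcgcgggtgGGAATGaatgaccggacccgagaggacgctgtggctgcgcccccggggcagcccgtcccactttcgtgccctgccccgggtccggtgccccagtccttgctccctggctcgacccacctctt
Trio: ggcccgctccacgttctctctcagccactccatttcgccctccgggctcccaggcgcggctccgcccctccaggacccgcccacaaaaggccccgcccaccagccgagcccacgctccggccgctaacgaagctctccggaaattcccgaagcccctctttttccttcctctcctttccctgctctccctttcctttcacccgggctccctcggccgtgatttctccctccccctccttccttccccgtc
The Rai14 match began 122 bases before that start, and the Trio stretch held none. The Rai14 window shown lies inside the gene span given above, not upstream of it. A second Rai14 window, chr15:10713541-10713790 before another start, held no GGAATG. Searched on both strands in windows of 300 bases, GGAATG occurred in 4 of 10 windows belonging to 7 of the genes, those of Tesk1, Coro2a, Rai14 and Myo10, and in 14.7% of the 32851 windows of the table. The CArG box of serum response factor, also searched on both strands, occurred in 0 of the 10 and in 1.63% of all. These are matches of letters, and no binding was measured.

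The wider adhesion and actin machinery was read from lists that were written with earlier results of these data known. They held 222 genes, of which 21 others lay in the stretches and 12 passed the filter on low counts. Of these 12, 4 rose and 0 fell, beside 19.8% and 4.65% of all stretch IDs, and their median log2 fold change was 0.67. Fewer of the 12 were mostly called when single libraries were left out: 2 without vector replicate 5, vector replicate 6, PSGL1_KO replicate 4 or PSGL1_KO replicate 6. The number was 4 without PSGL1_KO replicate 3 and 3 without any other single library. Svep1, a matrix protein that binds integrins, rose from 30.3 ± 11.0 (SD, n = 7) to 70.4 ± 22.1 CPM (SD, n = 6), a log2 fold change of 1.22 ± 0.24 (SE; edgeR adjusted p = 0.00198), and all 6 PSGL1_KO libraries were above all vector libraries. Lpar1, a receptor for lysophosphatidic acid, rose by 1.15 ± 0.29 (SE; edgeR adjusted p = 0.0109), with vector libraries at 5.82 to 15.1 CPM and PSGL1_KO libraries at 11.0 to 47.5 CPM.

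Sdc2, the proteoglycan syndecan-2, rose by 0.99 ± 0.32 (SE; edgeR adjusted p = 0.0457) and overlapped between the groups, at 3.64 to 16.0 CPM in vector and 7.30 to 35.7 CPM in PSGL1_KO libraries. Basp1, a membrane-attached protein linked to actin at the cell cortex, rose by 0.82 ± 0.26 (SE; edgeR adjusted p = 0.0376), from 80.7 ± 30.3 (SD, n = 7) to 143 ± 41.2 CPM (SD, n = 6). Tmod1, Cav1 and Tpm2 were the most abundant of the list genes that did not pass. Tmod1, which caps filament ends, had a log2 fold change of 0.35 (adjusted p = 0.118). Cav1, the coat protein of caveolae, had 0.46 (adjusted p = 0.411), and Tpm2, a tropomyosin, had 0.80 (adjusted p = 0.140). By list, 2 of 5 integrin adhesion genes and 1 of 3 filament genes rose, and 0 myosins other than Myo10 lay in the stretches. Of the 2 genes tested from the kinase and phosphatase list, the receptor Lpar1 rose and the phosphatase Ptpn3 did not (edgeR adjusted p = 0.145). The other 9 genes were too low to test, among them Fhl5, Epha7 and Ctnnd2.

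**Figure D5:**
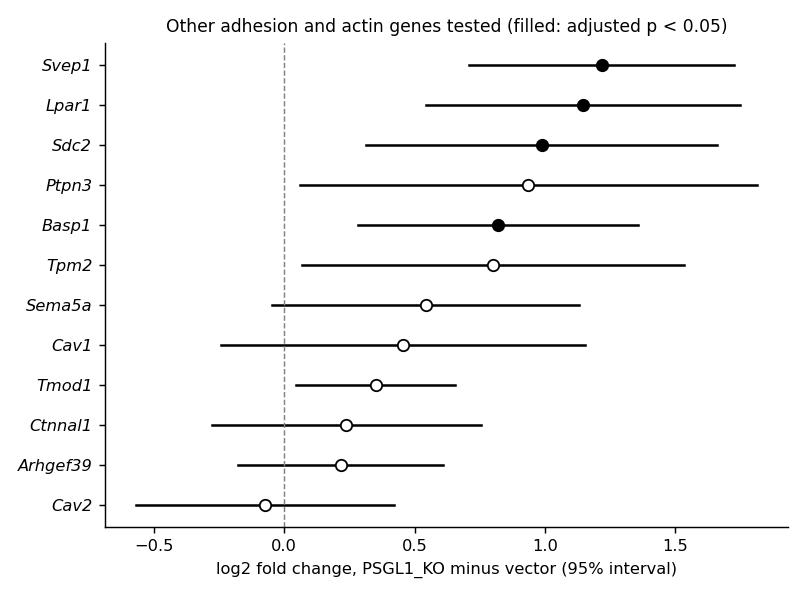
Points are log2 fold changes of PSGL1_KO minus vector with 95% intervals for the 12 other adhesion and actin genes tested, filled where the edgeR adjusted p was below 0.05. The filled points are Svep1, Lpar1, Sdc2 and Basp1, and 11 of the 12 values lie above 0.

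Markers of several cell types were read beside these values. Stromal and endothelial cells lack CD45 and should not pass the sort. Of all stretch IDs, 19.8% were called higher and 4.65% lower. Of 12 stromal or endothelial markers, 11 lay in the stretches, 4 rose (Reck, Svep1, Sdc2 and Lpar1) and 0 fell. So 3 of the 4 adhesion genes called above are on that list too. C1qtnf3 (log2 fold change -0.77, edgeR adjusted p = 0.269) and Cav2 (-0.07, adjusted p = 0.882) were below 0, and the rest of the 11 were above 0. The summed level of the 11 was 573 to 2311 CPM in vector libraries, median 1624, and 957 to 4544 CPM in PSGL1_KO libraries, median 3596. Most of that sum was Col1a2, a collagen gene, at 1428 ± 536 (SD, n = 7) and 2617 ± 1209 CPM (SD, n = 6), which did not pass (edgeR adjusted p = 0.0833). Of 9 macrophage or myeloid markers, 4 lay in the stretches and 3 rose (Lyn, Tfec and Atp6v0d2), while Abca1 did not pass (0.36, edgeR adjusted p = 0.0911). The sum of these 4 was 277 to 404 CPM in vector and 527 to 879 CPM in PSGL1_KO libraries, with no overlap. C1qa and Adgre1 were listed at 0, outside the stretches.

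T-cell markers, which EL4 shares, summed to 350.8 to 573 CPM in vector and 403 to 505 CPM in PSGL1_KO libraries, and of 4 tested Bach2 rose and Sit1 fell. Of the B-cell markers Pax5 and Cd72 lay in the stretches and 1 of the 2 rose, Cd72, while Pax5 went from 8.12 ± 3.05 (SD, n = 7) to 13.2 ± 4.09 CPM (SD, n = 6; edgeR adjusted p = 0.101). Together, again scaled to library totals only, they summed to 31.3 to 76.9 CPM in vector and 139 to 357 CPM in PSGL1_KO libraries. Ptprc, the gene of CD45, also lies outside them, so the sort could not be checked against its own marker. The part that these cell types had in the values of Tes, Rai14, Tesk1 and Trio was not tested.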

How the data were processed

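The authors deposited raw read counts per gene ID, 1 file per library. The submitters' processing notes name HISAT2, SAMtools, HTSeq and mm10. Whether counting used strand is not given in the sources used here, nor is any version or annotation, which matters for genes that overlap on opposite strands. The 5 HTSeq summary rows were left out of library sizes and tests. Symbols and coordinates came from GENCODE M21 on GRCm38 (52073 of 56923 IDs matched without version). edgeR 4.0.16 in R 4.3.3 (quasi-likelihood, robust, TMM, filterByExpr, group only, two-sided) tested 10422 IDs with Benjamini-Hochberg adjustment over all of them at 0.05. CPM are TMM-normalised counts scaled to a total of 1e6. The marker sums and the means of Rps20 and Pabpc1 are exceptions, scaled to library totals without TMM. Simulated counts for this comparison gave calls for 79 of 100 genes at 2-fold and 100 of 100 at 4-fold, and 3 false calls among 10056. The simulation gave every gene the same dispersion and no file number difference, and changed only genes above a minimum level. Its rates therefore check the code and need not hold for the real libraries. No 2 libraries of a group agreed within sampling noise (lowest mean chi-square 2.99). Depth was 3710817 to 5712566 counts, and the common dispersion corresponded to a spread of 29.4%. The genes, lists and stretches were chosen with earlier results of these data known. The rule named all 9 genes, Creb3 and Cd72, list genes past the threshold with the 3 most abundant others, and for each gene the 2 most similar by Pearson r of log2(CPM + 1). The neighbours of Coro2a, Gm4876 and Gm10389 were named after their values were seen. Alternatives were RLE scaling, scaling on stretch IDs or without mitochondrial IDs, no filter, DESeq2 1.42.0, the replicate number as a block, the file number as a term or alone, and each library left out.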

Additional observations from a re-analysis of the deposited data

Results flagged for a closer look

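Of 22 sets of values examined, 2 held 1 library apart from the rest of its group by Dixon's test at 95%, where chance alone gives about 1 in 20. Coro2a in vector replicate 1 was the highest of its group at 357 CPM, and the next vector library held 151 CPM. Trio in vector replicate 5 was the highest of its group at 44.4 CPM, and the next held 28.6 CPM. Mitochondrial IDs took 34.5% of gene counts in that same vector library, replicate 5, the largest share of the 13. Its part in the Trio value was not tested.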

How the results depend on the processing

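Tes, Rai14, Tesk1 and Trio passed the test in all 13 fits that left out 1 library and in all 9 other settings, with log2 fold changes of 0.79 to 1.14, 0.81 to 1.18, 1.61 to 2.21 and 0.78 to 1.15. Of the 9 genes, 4 to 5 were called when 1 library was left out, and the fifth was Arhgap12. It passed in 5 of the 9 other settings, among them DESeq2 (adjusted p = 0.0319) and the file number in the model (adjusted p = 0.00264). The adhesion and actin lists gave 2 calls with scaling on stretch IDs and 2 to 4 without single libraries. Calls among stretch IDs numbered 161 with the file number in the model and 84 to 107 without single libraries. Calls over all IDs were 2689 with the file number in the model, 2447 among file number 3 alone and 1196 to 1607 without single libraries. Values close to 0 changed sign, none past the threshold. Tln1 was -0.0104 with RLE, -0.16 with scaling on stretch IDs, -0.00098 without mitochondrial IDs, -0.0161 with DESeq2, -0.0254 in file number 3, and -0.16 to 0.15 without single libraries. Svil was 0.14 and Myo10 0.11 in file number 3, and without single libraries they ran from -0.15 to 0.0573 and from -0.12 to 0.0823. The cause of these changes was not tested.

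Replicate numbers did not pair the libraries: deviations of same-numbered libraries correlated at -0.05 to 0.63, and only replicates 1 and 6 were most like their own number. Replicates 1 and 2 of both groups were the libraries with file number 3. These correlations, and the replicate block, therefore also carry the file number, and the block is not separate from that adjustment. With the replicate block, 5 of the 9 genes (Arhgap12 included, adjusted p = 0.0221), 7 list genes, and 1176 higher and 962 lower IDs were called, and Svil (0.00799) and Myo10 (0.00085) changed sign. File number 3 had 2 libraries per group. The 9 list genes with 3 to 98 counts over all libraries were too low to test.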
